A study of Mus musculus with 10 samples.

Results

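The genes described here are 9 nuclear effectors and targets of Notch signaling: the DNA-binding factors Rbpj and Rbpjl, the Hes family repressors Hes1, Hes6 and Hes7, the Hey family repressors Hey1, Hey2 and Heyl, and the feedback inhibitor Nrarp. They were chosen by name, and all 9 were found among the 55487 genes of the count tables. RNA sequencing had been done on mammary epithelial cells (MECs), enriched by removing cells that carry lineage markers, and on mammary macrophages, selected with antibody to F4/80, from 10-wk-old diestrus female BALB/c mice. All the mice carried floxed Cebpb alleles. CebpbΔM mice also carried a Csf1r-driven Cre recombinase, which acts in cells that express or have expressed Csf1r and not in macrophages alone, whereas the WT controls had no Cre (the labels call CebpbΔM a C/EBPb knockdown). There were 2 libraries each of WT and CebpbΔM MECs (replicates 1 and 3), 2 of WT macrophages (replicates 4 and 5) and 4 of CebpbΔM macrophages (replicates 4 to 7). The sources used here do not say whether a library came from 1 mouse or from a pool, so the tests measure only the spread between these libraries, which may be technical.

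In the canonical pathway, a ligand on a neighboring cell triggers cleavage of a Notch receptor. The released intracellular domain enters the nucleus and binds RBPJ, which then switches from repressing to activating genes such as the Hes and Hey families and Nrarp. In the mammary gland the pathway is known for its part in luminal cell fate, and in the stroma the Hey genes are best known from blood vessel cells. RBPJL is a paralog of RBPJ that does not bind the Notch intracellular domain and is known as a partner of PTF1A in the acinar cells of the pancreas.

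All 9 genes are annotated as protein coding, and their spans in the count tables are on GRCm38. On the plus strand are Rbpj (chr5:53466152-53657362), Rbpjl (chr2:164403141-164415448), Nrarp (chr2:25180758-25183339), Hes1 (chr16:30064384-30067796), Hes7 (chr11:69120404-69124055) and Heyl (chr4:123233556-123249875). On the minus strand are Hes6 (chr1:91411483-91414038), Hey1 (chr3:8663359-8667256) and Hey2 (chr10:30832359-30842801). Counts cover all annotated exons of a gene, so isoforms and untranslated parts are not separated.

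Promoter windows, from 250 bases before to 50 bases after a transcription start, were taken from RefSeq (build GRCm38.p6) for 6 of the 9 genes, in 8 windows because Hes6 and Rbpj have alternative starts. Hes1, Hey1 and Heyl were not matched. Both strands were searched for TGGGAA, the core to which RBPJ binds, for TTNNGCAA, a pattern of the C/EBP kind, and for CACGTG and CACNAG, the E-box and N-box forms bound by Hes and Hey proteins. TGGGAA was present in 5 of the 8 windows (those of Rbpjl, Hey2 and Hes7 and both of Rbpj), against 25.6% of the 32851 windows of all genes. The Rbpj windows overlap each other, and the match in the downstream window is a site that the upstream window also holds. TTNNGCAA was present in 1 window, that of Nrarp, against 10.8% of all windows. CACGTG also occurred in the Nrarp window, against 7.15% of all windows, and CACNAG, held by 42.5% of all windows, occurred in the windows of Nrarp, Rbpjl and Hes7 and in the downstream window of Hes6. No matches of different motifs overlapped. The 3 stretches below lie directly upstream of annotated exons on the plus strand and are shown because they carry these matches: Nrarp with its C/EBP pattern at chr2:25180508-25180757, Rbpjl at chr2:164402944-164403140 and Rbpj at chr5:53590096-53590213 with the RBPJ core. Capitals mark TTNNGCAA in Nrarp and TGGGAA in the other 2. A match of letters is a description and not a measured binding site.

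Nrarp: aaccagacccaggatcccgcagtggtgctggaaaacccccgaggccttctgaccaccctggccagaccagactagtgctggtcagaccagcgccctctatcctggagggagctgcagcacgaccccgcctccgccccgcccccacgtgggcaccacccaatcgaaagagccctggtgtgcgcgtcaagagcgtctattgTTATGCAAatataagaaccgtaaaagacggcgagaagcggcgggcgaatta
Rbpjl: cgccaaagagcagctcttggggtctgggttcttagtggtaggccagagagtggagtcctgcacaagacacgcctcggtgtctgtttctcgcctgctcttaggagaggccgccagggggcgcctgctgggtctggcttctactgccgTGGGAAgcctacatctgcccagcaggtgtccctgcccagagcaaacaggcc
Rbpj: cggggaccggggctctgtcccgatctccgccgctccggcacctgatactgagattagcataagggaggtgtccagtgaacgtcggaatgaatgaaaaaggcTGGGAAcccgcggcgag

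The libraries held 25310926 to 27008166 counted read pairs in MECs and 16935000 to 20174722 in macrophages. The targeted gene, Cebpb, had 13 and 15 counts in WT macrophages and 16, 13, 5 and 4 in CebpbΔM macrophages, so its counts overlapped and did not separate the genotypes. In MECs it had 25 and 28 counts in WT and 69 and 42 in CebpbΔM. Marker lists set the libraries apart by cell type. The summed level of 10 macrophage markers was 228 to 405 CPM in MECs (CPM is a count scaled to the size of its library) and 3262 to 7292 CPM in macrophages, and Adgre1, which encodes F4/80, was at 0 in both CebpbΔM MEC libraries. Most of the sum in MECs was Cd14, at 182 to 367 CPM. Csf1r (8.77 to 19.5 CPM), Mertk (9.71 to 14.0 CPM), Cd68 (5.90 to 7.80 CPM) and Lyve1 (1.58 to 4.93 CPM) were lower in MECs, and Mrc1, Fcgr1, C1qa and Cx3cr1 were at most at 1.63 CPM there. The macrophage libraries also held RNA of other cells. The sum of 7 luminal epithelial markers was 9776 to 9845 CPM in WT and 5218 to 6612 CPM in CebpbΔM macrophages, against 29428 to 36591 CPM in MECs. None of these 7 markers was at 0 in any group. The sum of 6 endothelial markers was 696 to 1534 CPM in macrophages and 57.7 to 83.6 CPM in MECs, and that of 5 pericyte and smooth muscle markers 309 to 674 CPM against 35.1 to 60.5 CPM. Fibroblast markers were high in both preparations. The sum of 5 of them was 4603 and 5173 CPM in WT macrophages, 2396 to 4947 CPM in CebpbΔM macrophages and 4399 to 5343 CPM in MECs. Within the macrophage experiment, luminal marker sums were therefore higher in both WT libraries than in all 4 CebpbΔM libraries, which came from Krt8, Krt18 and Krt19. Epcam (420 to 461 CPM in WT, 285 to 646 CPM in CebpbΔM), Cdh1 (225 to 281 and 165 to 342 CPM), Cldn3 and Cldn4 overlapped. The sum of 5 basal markers also overlapped and reached higher in CebpbΔM (617 and 983 CPM in WT, 571 to 2555 CPM in CebpbΔM). Macrophage marker sums were lower in WT (3262 and 4800 CPM against 5207 to 7292 CPM). In such bulk samples, fewer cells of a type and less RNA per cell cannot be told apart.

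**Figure D1:**
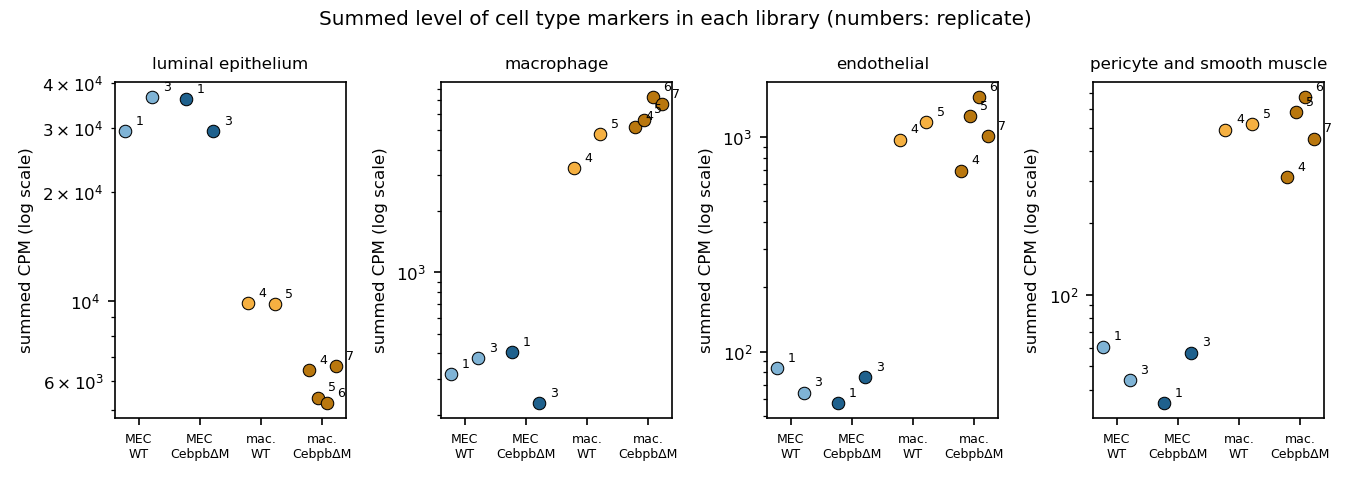
Summed CPM of the luminal epithelial, macrophage, endothelial and pericyte and smooth muscle marker lists (log axes, each panel with its own range) in the 10 libraries, 1 point a library with its replicate number. Luminal sums were 5218 to 9845 CPM in macrophage libraries against 29428 CPM or more in MECs, and CebpbΔM replicate 6 was the highest and replicate 4 the lowest macrophage library for the endothelial and the pericyte lists.

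The levels of the 9 genes differed widely. Per kilobase of counted exon, with all 10 libraries on 1 scale, Hes6 was the most abundant in WT MECs (16.1 ± 0.302 CPM per kb, SD, n = 2), ahead of Hes1 (12.3 ± 3.53) and Hey1 (3.56 ± 0.982), and none of these neighbors overlapped. Heyl, Nrarp and Rbpj followed at 2.05 ± 0.83, 1.45 ± 0.371 and 1.23 ± 0.0328 CPM per kb, each overlapping the next. Rbpjl (0.873 ± 0.0325), Hey2 (0.194 ± 0.0505) and Hes7 (0.0897 ± 0.0320) came last. In CebpbΔM MECs, Hes1 led at 34.1 ± 20.5 CPM per kb, but its 2 libraries (19.6 and 48.5) overlapped those of Hes6 (16.2 and 20.5).

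Macrophages had the same gene in the lead whatever the genotype. In WT macrophages Hes6 reached 26.2 ± 2.51 CPM per kb, above Hey1 (7.50 ± 0.436), Hes1 (6.57 ± 1.88) and Heyl (3.94 ± 0.415), of which Hey1 and Hes1 overlapped. Nrarp (2.15 ± 0.951) and Rbpj (2.14 ± 0.398) overlapped as well, and Rbpjl was at 1.45 ± 0.234 CPM per kb. In CebpbΔM macrophages Hes6, Hes1, Hey1, Heyl and Rbpj formed a run from 17.1 ± 4.24 to 3.38 ± 0.385 CPM per kb (SD, n = 4) in which each gene overlapped the next. Rbpj then stood above Nrarp (1.65 ± 0.409) without overlap, and Rbpjl was at 0.418 ± 0.168 CPM per kb. Hey2 and Hes7 had the lowest means in both genotypes, but in CebpbΔM macrophages Rbpjl overlapped Hey2 (0.204 to 0.578 against 0.0106 to 0.532 CPM per kb).

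**Figure D2:**
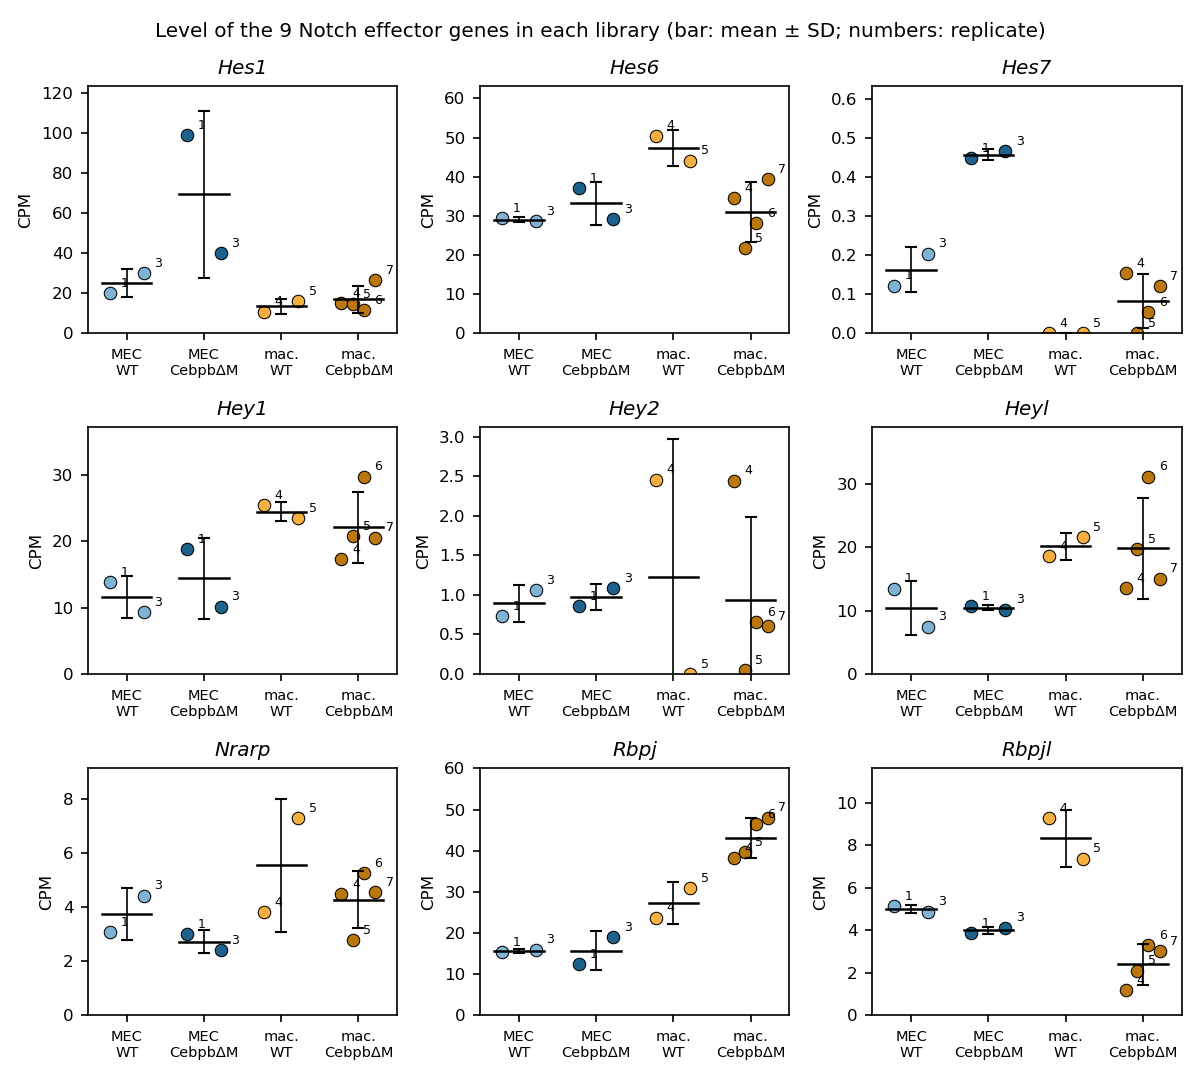
Level of each of the 9 genes in each library (CPM, with all 10 libraries normalized together), as points with replicate numbers, and the mean and SD of each group as bars (drawn only above 0). Hes1 is highest in CebpbΔM MECs, Rbpjl is lowest in CebpbΔM macrophages, and both libraries numbered 4 carry the highest Hey2 of their macrophage group.

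The first comparison asked whether these genes differ between MECs of CebpbΔM and WT mice, that is, in epithelium of glands in which Cebpb was targeted in Csf1r-expressing cells. Hes1, the main Notch-responsive repressor of its family, had 2431 and 1027 counts in CebpbΔM MECs against 493 and 741 in WT. On the scale of the MEC experiment these were 93.4 and 39.0 CPM against 18.7 and 28.7 CPM. Both CebpbΔM libraries were higher than both WT libraries, but the CebpbΔM libraries themselves differed 2.40-fold. The log2 fold change was 1.48 ± 0.366 (SE), or 2.79-fold, with an adjusted p of 0.210 in edgeR's quasi-likelihood (QL) test (Benjamini-Hochberg over 15698 genes, threshold 0.05), so Hes1 was not called. It ranked 137 by p, at an unadjusted p of 0.00183.

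Whether Hes1 was called depended on the test. Its adjusted p was 0.0172 by edgeR's likelihood ratio test, the test that the study's methods name, and 0.0112 by DESeq2, and it ranged from 0.000276 to 0.970 over 12 alternatives. Without CebpbΔM replicate 1 the log2 fold change was 0.72, and without replicate 3 it was 1.97. Replicate 1 also had the highest sum of milk protein markers among MEC libraries (875 CPM, against 263 to 553 CPM in the other 3). Markers whose values did not overlap between the MEC genotypes included the fibroblast gene Dcn (log2 fold change 0.96 ± 0.262, adjusted p = 0.269 in the QL test), Csf1r (0.97 ± 0.265, adjusted p = 0.269) and, lower in CebpbΔM, the luminal progenitor marker Kit (-0.78 ± 0.309, adjusted p = 0.716). Other markers of the same cells did not all follow. The fibroblast gene Col1a2 was lower in CebpbΔM without overlap (-0.43 ± 0.262), and Col1a1, Pdgfra and Lum overlapped. Of the macrophage markers, Lyve1 was higher (0.96 ± 0.463) and Cd68 lower (-0.21 ± 0.302) without overlap, and Cd14 and Mertk overlapped. The luminal progenitor markers Elf5 and Aldh1a3 overlapped. The part of these markers in the Hes1 result was not tested.

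None of the 8 genes tested was called in MECs by the QL test, where 0.051% of all genes were called. At an unadjusted p below 0.05 there was 1 of the 8, Hes1, against 5.54% of all genes. Groups did not overlap for 4 of the 8, against 28.7% of all genes. These were Hes1 and, with small differences, Hes6, Nrarp and Rbpjl. Hes6, which is known to antagonize Hes1, was at 35.1 and 28.5 CPM in CebpbΔM and 27.6 and 27.3 CPM in WT (log2 fold change 0.21 ± 0.228). Nrarp, a target of Notch that limits the pathway by promoting loss of the intracellular domain, was at 2.84 and 2.35 CPM in CebpbΔM and 2.89 and 4.23 CPM in WT (log2 fold change -0.45 ± 0.377). Rbpjl was at 3.65 and 4.02 CPM in CebpbΔM and 4.83 and 4.66 CPM in WT (log2 fold change -0.31 ± 0.328). All 3 had an adjusted p of 0.9996 in the QL test.

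The other effectors overlapped between the genotypes in MECs. Rbpj, through which all canonical Notch signaling passes, was at 11.7 and 18.6 CPM in CebpbΔM and 14.4 and 15.2 CPM in WT, so the WT values lay between the CebpbΔM values. Hey1 was at 17.7 and 9.90 CPM in CebpbΔM and 13.0 and 8.92 CPM in WT, with the higher value in replicate 1 of both genotypes. Heyl was at 10.1 and 9.94 CPM in CebpbΔM, between the WT values of 12.7 and 7.14 CPM. Hey2 was low, at 0.807 and 1.06 CPM in CebpbΔM and 0.684 and 1.01 CPM in WT. Their log2 fold changes lay between 0.02 ± 0.32 (Heyl) and 0.33 ± 0.333 (Hey1), none larger than its SE.

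Hes7, best known from the segmentation clock of the embryo, was too low to be tested in MECs. It had 11 and 12 counts in CebpbΔM and 3 and 5 in WT, or 0.439 ± 0.0232 against 0.154 ± 0.0565 CPM (SD, n = 2). A count of 3 corresponds to 0.111 to 0.119 CPM in these libraries, so WT replicate 1 was at the floor. A noncoding gene, 9130213A22Rik, overlaps Hes7 on the opposite strand, shares 234 exonic bases with it and had 0 to 11 counts a library. With all genes kept, the log2 fold change of Hes7 was 1.48 ± 0.634, with an adjusted p of 0.904 in the QL test.

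The same question was then asked of the macrophages themselves. Rbpjl had 185 and 155 counts in WT and 23, 43, 61 and 50 in CebpbΔM. On the scale of the macrophage experiment it was at 9.68 and 7.72 CPM in WT and at 1.204, 2.16, 3.38 and 3.09 CPM in CebpbΔM. All 4 CebpbΔM libraries were below both WT libraries. The log2 fold change was -1.84 ± 0.404, or 3.57-fold lower, with an adjusted p of 0.418 in the QL test over 17772 genes, so Rbpjl was not called. It ranked 42 by p. Its adjusted p was 0.0503 by the likelihood ratio test and 0.0547 by DESeq2, and over 16 alternatives it was 0.0503 to 0.673 with a log2 fold change of -2.36 to -1.61.

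Rbpjl overlaps Matn4 on the opposite strand, with 149 exonic bases shared, and Matn4 had 99 and 86 counts in WT and 207, 206, 190 and 92 in CebpbΔM macrophages. Ptf1a, the partner of RBPJL in the pancreas, was at 0 in all 10 libraries. The luminal keratins, like Rbpjl, were higher in both WT libraries than in all 4 CebpbΔM libraries, whereas Epcam and Cdh1 overlapped. WT macrophages had more Rbpjl than the MEC libraries did, at 9.28 and 7.38 CPM against 3.86 to 5.14 CPM with all 10 libraries on 1 scale. The luminal marker sums of WT macrophages were lower than those of MECs. The sum of 4 hormone-sensing luminal markers was 1432 and 1626 CPM in WT macrophages, 542 to 1558 CPM in CebpbΔM macrophages and 1897 to 2541 CPM in MECs. One of the alternatives above had the mean level of 12 luminal and basal markers as a covariate. That level overlapped between the genotypes. The part of RNA from luminal cells alone in the Rbpjl difference was not tested.

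Rbpj itself differed in the opposite direction. It was at 24.7 and 32.3 CPM in WT and at 39.2, 40.8, 47.4 and 49.5 CPM in CebpbΔM macrophages. Every CebpbΔM library was above both WT libraries. The log2 fold change was 0.63 ± 0.208, or 1.55-fold, with an adjusted p of 0.435 in the QL test and 0.187 to 0.677 over the alternatives. The macrophage marker sum, given above, was also higher in all 4 CebpbΔM libraries, and its part in the result was not tested. Rbpj has processed copies in the genome (Rbpj-ps1 and Rbpj-ps3). Read pairs that match both Rbpj and a copy may be lost, because a mapping quality of 10 or more was required. The 2 opposite-strand genes inside its span, Gm10441 and Gm40304, share 0 exonic bases with it.

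Hes6 was at 52.7 and 46.1 CPM in WT and at 35.4, 22.4, 28.7 and 40.6 CPM in CebpbΔM macrophages. Both WT libraries were above all 4 CebpbΔM libraries. The log2 fold change was -0.64 ± 0.244, or 1.56-fold lower, with an adjusted p of 0.476 in the QL test and 0.301 to 0.711 over the alternatives. As with Rbpjl, the luminal keratins were also higher in the WT libraries, and WT macrophages had more Hes6 than any MEC library (44.1 and 50.5 CPM against 28.6 to 37.1 CPM on the common scale). With the mean level of luminal and basal markers as a covariate, the log2 fold change of Hes6 was -0.65 (adjusted p = 0.350 in the QL test). The part of RNA from luminal cells alone in the Hes6 difference was not tested either.

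No gene was called in macrophages by the QL test, among the 8 effectors or among all genes (0%). At an unadjusted p below 0.05 there were 3 of the 8 (Rbpjl, Rbpj and Hes6) and 9.76% of all genes, and the likelihood ratio test and DESeq2, which called 138 and 201 genes in all, called none of the 8. Groups did not overlap for the same 3 effectors, against 18.7% of all genes. For a single gene, an exact permutation test of 4 against 2 libraries that doubles the smaller tail cannot give a two-sided p below 0.133. One of 2 against 2 in MECs cannot give a p below 0.333.

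The remaining effectors overlapped between macrophage genotypes. Hes1 was at 11.2 and 16.8 CPM in WT and 15.5, 14.99, 11.5 and 27.4 CPM in CebpbΔM, where replicate 7 stood above the rest (log2 fold change 0.30 ± 0.368). Hey1 was at 26.6 and 24.5 CPM in WT and 17.7, 21.4, 30.4 and 21.2 CPM in CebpbΔM (log2 fold change -0.17 ± 0.249). Heyl was at 19.5 and 22.7 CPM in WT and 13.9, 20.3, 31.8 and 15.5 CPM in CebpbΔM (log2 fold change -0.05 ± 0.336). For both Hey1 and Heyl, CebpbΔM replicate 6 was the highest macrophage library and CebpbΔM replicate 4 the lowest, as for the endothelial and the pericyte marker sums. The part of those cells in the levels of Hey1 and Heyl was not tested.

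Nrarp was at 3.98 and 7.62 CPM in WT and 4.61, 2.86, 5.38 and 4.70 CPM in CebpbΔM macrophages (log2 fold change -0.42 ± 0.410), so WT replicate 5 stood alone. Without that library the log2 fold change of Nrarp was 0.13. Hey2 did not follow genotype: replicate 4 had 49 counts in WT and 48 in CebpbΔM, while the other libraries had 0 in WT and 1, 12 and 10 in CebpbΔM. Its log2 fold change was -0.37 ± 1.15. Hes7 had 0 counts in both WT and 3, 0, 1 and 2 in CebpbΔM macrophages, all at or under the floor of 3 counts (0.149 to 0.177 CPM), so it was not detectable there at this depth and no fold is given.

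**Figure D3:**
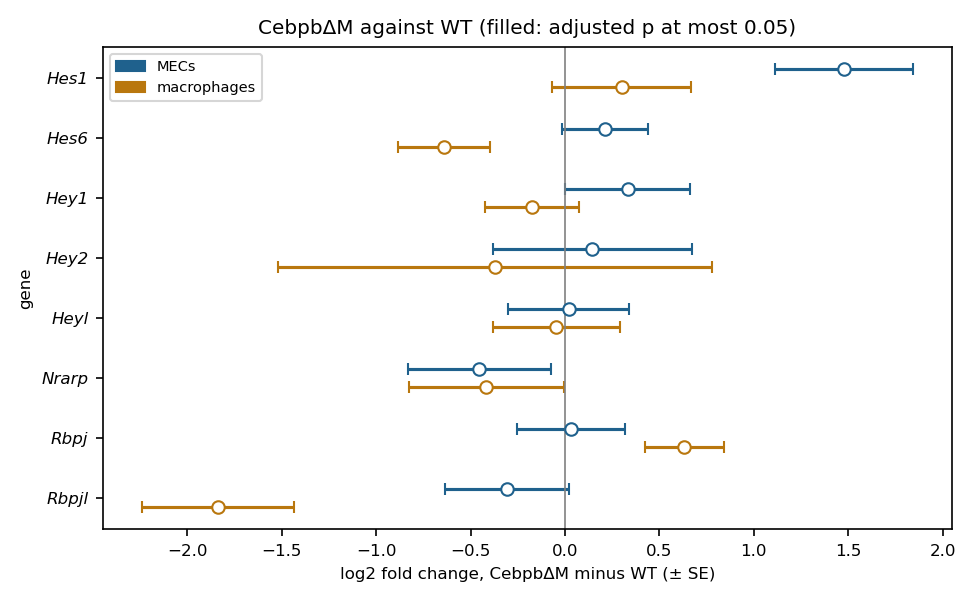
Log2 fold change of CebpbΔM against WT (± SE) for the 8 genes tested, in MECs and in macrophages, each from its own fit. All symbols are open because no gene passed an adjusted p of 0.05; Hes1 in MECs (1.48) and Rbpjl in macrophages (-1.84) lie farthest from 0.

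Nrarp carries a limit of its own. Gm38287, a noncoding gene, lies on the opposite strand with all 2051 of its exonic bases inside the exon of Nrarp, and it had 46 to 159 counts a library against 57 to 153 for Nrarp. The ratio of the counts, Gm38287 to Nrarp, was 0.622 to 1.11, and it was above 1 in 3 of the 10 libraries. Read pairs were counted by strand, but the sources used here do not say whether the library kit marks strand. If it does not, read pairs of Nrarp and Gm38287 cannot be told apart, nor can those of Hes7 and Rbpjl from their opposite-strand partners over the shared bases, and each gene's count holds only the pairs that fell on its own strand.

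The difference between the genotype effects in macrophages and in MECs was tested in 1 fit of all 10 libraries. The QL test called none of the 8 effectors and 0% of 18323 genes, and the likelihood ratio test and DESeq2 also called none of the 8. At an unadjusted p below 0.05 there were 2 of the 8, against 5.25% of all genes. Rbpjl had the smallest p of the 8, with a difference of -1.49 ± 0.538 on the log2 scale (macrophages minus MECs; unadjusted p = 0.0174, adjusted p = 0.941 in the QL test). Hes6 followed at -0.81 ± 0.356 (adjusted p = 0.942). The differences for Hes1 (-1.14 ± 0.606, adjusted p = 0.960) and Rbpj (0.65 ± 0.343, adjusted p = 0.958) had an unadjusted p of 0.0839 and 0.0832, and those for Hey1, Hey2, Heyl and Nrarp had unadjusted p of 0.3301 or more.

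The levels were next compared between the cell preparations within each genotype. The cell type, the way the cells were isolated and the experiment cannot be told apart in these comparisons. Values here are CPM with all 10 libraries on 1 scale. Rbpj was called higher in macrophages in both genotypes. In WT it was at 23.7 and 30.8 CPM in macrophages and 15.3 and 15.9 CPM in MECs, with a log2 fold change of 0.80 ± 0.260 (adjusted p = 0.0372). In CebpbΔM it was at 38.2 to 48.1 CPM in macrophages and 12.4 and 19.0 CPM in MECs, with a log2 fold change of 1.45 ± 0.234 (adjusted p = 0.000478). There was no overlap in either genotype.

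Hes1 differed the other way. In CebpbΔM it was at 11.3 to 26.6 CPM in macrophages and 98.8 and 39.9 CPM in MECs, a log2 fold change of -2.04 ± 0.373, or 4.12-fold lower, which was called (adjusted p = 0.00116). In WT it was at 10.7 and 16.1 CPM in macrophages and 19.9 and 30.1 CPM in MECs, a log2 fold change of -0.90 ± 0.470 that was not called (adjusted p = 0.175). The difference between these 2 values is the interaction given above, which was not called.

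Among the Hey genes, Hey1 was called higher in WT macrophages, at 25.5 and 23.5 CPM against 13.9 and 9.34 CPM in MECs (log2 fold change 1.08 ± 0.347, adjusted p = 0.0369). In CebpbΔM it overlapped, at 17.3 to 29.7 CPM against 18.8 and 10.1 CPM (log2 fold change 0.61 ± 0.303, adjusted p = 0.135). Heyl was above MECs in all macrophage libraries, at 13.6 to 31.2 CPM against 7.47 to 13.5 CPM, without reaching the threshold in WT (log2 fold change 0.94 ± 0.397, adjusted p = 0.0969) or in CebpbΔM (0.93 ± 0.354, adjusted p = 0.0585). It was called in 1 of 16 alternatives in WT (without CebpbΔM macrophage replicate 6, adjusted p = 0.0450) and in 4 of 16 in CebpbΔM. Those 4 were the likelihood ratio test (0.0492), DESeq2 (0.0479), and the fits without CebpbΔM macrophage replicate 4 (0.0255) or 7 (0.0469). The endothelial and pericyte marker sums were higher in all macrophage libraries than in all MEC libraries, and their part in these differences was not tested. Hey2 and Nrarp overlapped between the preparations in both genotypes.

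Hes6 and Rbpjl were not called in either genotype in the main fit. In WT, Hes6 passed the threshold in 2 of 16 alternatives, both with a library left out. For Hes6 the log2 fold change was 0.70 ± 0.270 in WT (adjusted p = 0.0717) and -0.10 ± 0.234 in CebpbΔM (adjusted p = 0.765). For Rbpjl it was 0.73 ± 0.375 in WT (adjusted p = 0.167) and -0.75 ± 0.386 in CebpbΔM (adjusted p = 0.148), with no overlap in either genotype. Rbpjl was thus above the MEC libraries in WT macrophages and below them in CebpbΔM macrophages, at 1.17 to 3.31 CPM against 3.86 and 4.12 CPM.

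**Figure D4:**
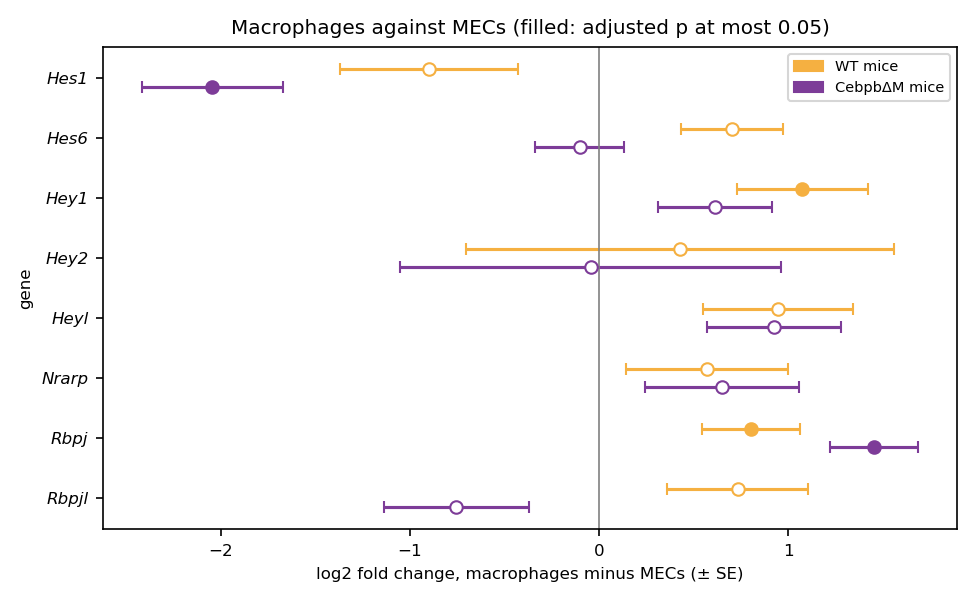
Log2 fold change of macrophages against MECs (± SE) within WT and within CebpbΔM mice for the 8 genes tested, from the fit of all 10 libraries. Filled symbols passed an adjusted p of 0.05: Rbpj in both genotypes (0.80 and 1.45), Hey1 in WT (1.08) and Hes1 in CebpbΔM (-2.04).

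In counts, 2 of the 8 effectors were called between the preparations in WT, against 28.1% of all genes. In CebpbΔM 2 of 8 were called, against 36.8%. With only 8 genes, these counts do not set the effectors apart from the background. Groups did not overlap for 6 of the 8 in WT, against 65.1% of all genes, and for 4 of the 8 in CebpbΔM, against 52.9%. The WT calls rested on the libraries of that genotype: without WT MEC replicate 1 or 3, or without WT macrophage replicate 5, none was called, and without WT macrophage replicate 4 only Rbpj was. With no filter on low counts none was called in WT either, with an adjusted p of 0.0700 for Rbpj and 0.0701 for Hey1. The calls of Hes1 and Rbpj in CebpbΔM held in all 16 alternatives, with adjusted p of at most 0.0481 and 0.0114. Hes7, not tested in the main fit, was called lower in CebpbΔM macrophages with no filter (-2.46 ± 0.828, adjusted p = 0.0477 in the QL test). It had 0 to 3 counts there, at or under the floor, against 11 and 12 in CebpbΔM MECs. In WT it was not called (adjusted p = 0.179).

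Besides these effectors, a list of 64 other Notch pathway genes was examined, of which 63 were matched by symbol. It held receptors, ligands, genes of receptor processing, coactivators, corepressors, signal regulators, other Hes family genes and Ptf1a. None of the 54 tested in MECs or the 58 tested in macrophages was called between the genotypes by the QL test. The likelihood ratio test and DESeq2, which called 179 and 161 of all genes in MECs, each called 1 of the 54 there, Rfng, a Fringe glycosyltransferase that modifies Notch receptors, named here after its values were seen (log2 fold change 1.45 ± 0.282, adjusted p = 0.0970 in the QL test), and none of the 58 in macrophages. The median log2 fold change was -0.03 in MECs and -0.07 in macrophages, beside -0.01 and 0.00 over all genes tested. At an unadjusted p below 0.05 there were 2 of 54 in MECs, against 5.54% of all genes, and 7 of 58 in macrophages, against 9.76%. The receptors overlapped between the genotypes, except Notch2 in macrophages, at 188 ± 22.5 CPM (SD, n = 4) in CebpbΔM and 142 ± 15.3 CPM (n = 2) in WT (log2 fold change 0.40 ± 0.173, adjusted p = 0.502). In MECs, Notch1 was at 57.1 ± 20.4 CPM in CebpbΔM and 71.1 ± 0.295 CPM in WT (log2 fold change -0.32 ± 0.255). Notch3 was at 53.0 ± 16.0 and 62.3 ± 5.48 CPM.

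Between the preparations, 17 of the 58 pathway genes were called in WT, against 28.1% of all genes, and 19 in CebpbΔM, against 36.8%, so neither share was far from the background. In WT, 13 of the 58 were called higher and 4 lower in macrophages, against 16% and 12.1% of all genes. In CebpbΔM, 14 were called higher and 5 lower, against 20.5% and 16.3%. Called higher in both genotypes were Notch2 (log2 fold change 0.97 ± 0.191 in WT and 1.39 ± 0.174 in CebpbΔM), Notch3 (0.99 ± 0.282 and 0.93 ± 0.253) and Notch4, an endothelial receptor (2.56 ± 0.652 and 2.90 ± 0.591). Notch1 was called in CebpbΔM (0.89 ± 0.273, adjusted p = 0.0229) and not in WT (0.60 ± 0.303, adjusted p = 0.163). Mfng, of the same Fringe family, had a log2 fold change of 4.67 ± 0.382 in WT and 4.61 ± 0.362 in CebpbΔM, and the ligand Dll4, known from endothelium, 2.47 ± 0.361 and 2.66 ± 0.339. Lfng, another Fringe enzyme, was called in WT at 2.82 ± 0.305 and in CebpbΔM at 2.05 ± 0.268. Snw1, which encodes SKIP, was called lower in macrophages in both genotypes (-0.56 ± 0.183 and -0.45 ± 0.155). The ligand Dll1 was called lower in WT (-0.95 ± 0.318), and Dtx3 (-0.65 ± 0.157) and Numbl (-0.84 ± 0.247), which act on receptor turnover, in CebpbΔM. Hes5, another classical Notch target, had 0 to 9 counts a library and was not tested.

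Across the 10 libraries the effectors did not share 1 pattern. By the correlation of log2 CPM, given as a description over libraries that share a cell type, Hey1 and Heyl were the most alike pair (Pearson's r = 0.893), followed by Heyl and Rbpj (0.703). Hes1 ran against Heyl (-0.699) and Rbpj (-0.648). Among all 18322 other genes, those most like Rbpj were Clasp2 (0.986) and Mbnl1 (0.983). Those most like Heyl were Fosl2 (0.986) and Gm9967 (0.959), and those most like Hey1 were Flywch1 (0.979) and Cadm3 (0.959). Rbpjl was closest to Dmtn (0.965) and Cisd3 (0.956), Hes1 to Gm15518 (0.959) and Cyth2 (0.955), and Hes6 to Gstm4 (0.933) and Actr6 (0.919). Hey2 was closest to Nanos1 (0.950) and Zfyve9 (0.946). For Nrarp the closest gene was Gm38287, its overlapping partner on the opposite strand (0.927), and then Zfp874a (0.924).

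**Figure D5:**
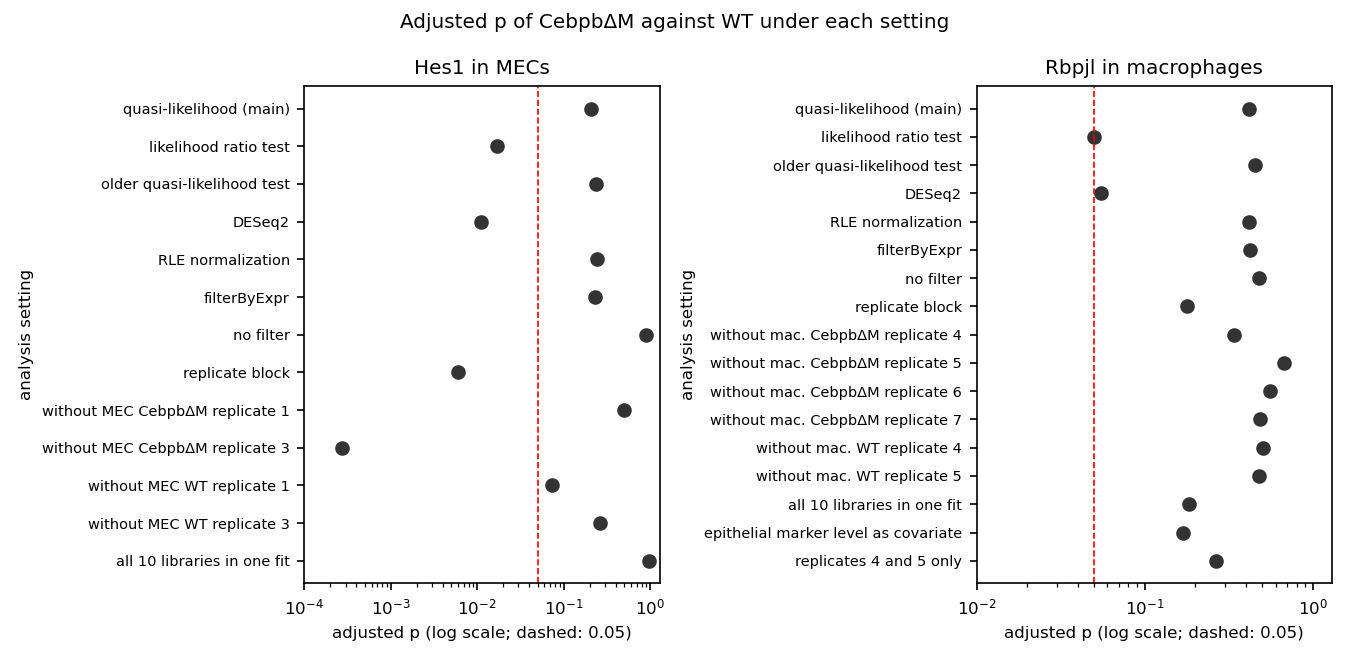
Adjusted p (log axis, dashed line at 0.05) of CebpbΔM against WT for Hes1 in MECs and Rbpjl in macrophages under the main quasi-likelihood test and each alternative. Hes1 lies on both sides of the line, from 0.000276 to 0.970, and Rbpjl stays at or above 0.0503.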

How the data were processed

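RNA was extracted with TRIzol and libraries were made with a low-input Smart-Seq kit and sequenced on DNBSEQ in paired 150-bp reads. Trimming by the authors used Trimmomatic (version 0.33), alignment to GRCm38 used HISAT2 (version 2.1.0), run through CHURP, and featureCounts (version 1.6.2) assigned pairs to Ensembl release 100 genes by the reverse strand at a mapping quality of 10 or more. Raw counts were deposited, and every count column was used. Command lines in the file headers also name MEC libraries numbered 2, which were not analysed here. Symbols were matched through GENCODE M21.

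Genes of at least 300 nt above 1 CPM in at least 2 libraries were fitted with edgeR (version 4.0.16; R version 4.3.3), with TMM normalization, in MECs and macrophages separately for genotype and in 1 fit of 10 libraries (4 groups) for the interaction and cell types. The QL test was adjusted by Benjamini-Hochberg over all genes. The likelihood ratio test of edgeR, which the study's methods name, was an alternative, as were DESeq2 (version 1.42.0), other filters and scalings, and leaving out each library. Further alternatives were a replicate block and, in macrophages, an epithelial covariate, the mean log2 CPM of 12 luminal and basal markers. SE is the log2 fold change divided by the square root of F. Correlations used log2 CPM with a prior count of 2. The fits were tested on simulated counts. No 2 replicates agreed within sampling noise. The effectors and gene lists were chosen with earlier results of these data known. All 9 effectors were named, and other pathway genes were named where called (up to 3 each way by p) or if Notch receptors or Hes5, and the 2 genes most like each effector. A pathway gene that this rule would name is not reported here. Floors of 3 counts cover counting error only.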

Additional observations from a re-analysis of the deposited data

How the results depend on the processing

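Of 612 values for the effectors under the alternatives, 559 kept their direction and side of the threshold, 11 passed it and 9 missed it newly, and 33 changed sign. In MECs, 0 of 8 effectors were called in the main analysis and 1 (Hes1) by the likelihood ratio test, by DESeq2, with a replicate block and without CebpbΔM replicate 3 (0 to 1 on leaving out each library). In macrophages and for the interaction, 0 were called in every alternative. Between cell types in WT, 2 were called, 0 with no filter, and 0 to 3 on leaving out each library.

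Signs changed as follows. Heyl in MECs was -0.00299 with all 10 libraries in 1 fit. Under the replicate block Rbpj in MECs was -0.00256, Hey2 in macrophages 0.00724 and the interaction of Nrarp -0.134, and with macrophage replicates 4 and 5 only Hey2 was 0.0151. On leaving out each library, the log2 fold change in MECs ranged from -0.15 to 0.69 for Hey1, -0.11 to 0.33 for Hey2, -0.32 to 0.49 for Heyl and -0.34 to 0.33 for Rbpj. In macrophages it ranged from -1.40 to 0.0563 for Hey2, -0.34 to 0.0999 for Heyl and -0.80 to 0.13 for Nrarp. The interaction ranged from -0.84 to 0.0466 for Hey1, -1.68 to 7.24 for Hey2, -0.50 to 0.34 for Heyl and -0.34 to 0.59 for Nrarp. Between cell types it ranged from -7.27 to 1.5004 for Hey2 in WT, and in CebpbΔM from -0.27 to 0.0792 for Hes6 and -1.21 to 0.39 for Hey2. The values 7.24 and -7.27 of Hey2 came without WT macrophage replicate 4, which leaves only the WT library with 0 counts.

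The correlation of same-numbered deviations from the group mean was 0.106 in MECs, and 0.129 and -0.0865 in macrophages. In a group of 2 libraries the deviations mirror each other, so these values cannot show whether replicate numbers pair the libraries. The main fits assumed no pairing. Hes1 in MECs had an adjusted p of 0.00596 under the block, and no other effector's call changed.

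The number of all genes called in MECs was 8 in the main analysis, 179 by the likelihood ratio test, 161 by DESeq2, 229 with the block, 5 with filterByExpr, 0 with no filter, 0 with all 10 libraries in 1 fit, and 5 to 354 on leaving out each library. In macrophages it was 0, 138, 201 and 89 in the first 4, 5 with the epithelial covariate (a level that overlapped between the genotypes) and 1 with replicates 4 and 5 only. For the interaction it was 0, 53, 27 and 4, and up to 2 on leaving out each library. Between cell types it was 5150 in WT and 6744 in CebpbΔM, with 2752 to 5382 and 3916 to 7058 on leaving out each library. The causes were not tested. Where a group was left with 1 library, that library was assumed to vary like the others. Depth limits Hes7 and Hey2, at 0 to 12 and 0 to 49 counts a library.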
